A study of Arabidopsis thaliana with 8 samples.

Results

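The Affymetrix ATH1 array carries probe sets for transcripts of the plastid and mitochondrial genomes of Arabidopsis, and 112 of them were followed here among 22746 probe sets without the array's control sets. A probe set was included if the platform annotation listed it with a gene of either organelle genome. The plastid genome was represented by 77 probe sets for 76 genes, since rps12 had 2. The mitochondrial genome was represented by 35 probe sets for 27 genes, with 9 probe sets for nad1 and 2 for nad5. Of the mitochondrial probe sets, 23 were listed with 1 gene, 1 with both rpl16 and rps3, and 11 also with a nuclear gene in the region of chromosome 2 that holds an inserted copy of mitochondrial DNA. These 11 cannot tell the mitochondrial transcript from a nuclear one. Being listed without a nuclear gene does not show that the other probe sets can, since probe sequences were not examined here.

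Whole seedlings 7 d old of the ecotype Col-0 (wild type) and of OE-HRA1 (35S:HRA1:FLAG, in the same ecotype) were kept for 2 h under hypoxia, with argon in place of air in dim light, or for 2 h in chambers open to ambient air (non-stress). Each of the 4 groups had 2 arrays. Col-0 arrays are numbered as replicates 1 and 2, and OE-HRA1 arrays come from the independent lines #1 and #2, 1 array per line and treatment, so that differences between lines are part of the spread between the OE-HRA1 arrays. The 35S promoter drives the transgene in most tissues, and dim light was stated for the hypoxia treatment only, so that light and oxygen cannot be told apart in the hypoxia comparison. Both Col-0 hypoxia arrays carry the air treatment in their source field, but hypoxia in title, description and treatment, and were used as hypoxia arrays. The HRA1 probe set read 7.20 and 7.00 log2 units in Col-0 in air and 12.98 and 13.09 in OE-HRA1 in air, and 11.74 and 12.10 in the Col-0 arrays used as hypoxia, against 12.19 and 12.02 in OE-HRA1 under hypoxia.

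Plastids and mitochondria keep small genomes that encode core subunits of the photosynthetic and respiratory complexes and part of the ribosomes that translate them, while most other organelle proteins are encoded in the nucleus. Plastid genes lie in clusters that are often transcribed together and cut into smaller RNAs, by a plastid-encoded polymerase (the rpo genes) and by nuclear-encoded phage-type polymerases. Plant mitochondrial genes are transcribed by phage-type polymerases alone, and nad1, nad2 and nad5 are assembled from separate transcripts by trans-splicing. Organelle RNAs mostly lack a long poly(A) tail, and short tails mark them for decay. Labelling for arrays of this kind usually starts from the tail, so the signal of an organelle probe set need not follow the total amount of its transcript. The sources used here name a labelling kit but not the primer.

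Values are signals on the log2 scale, and a signal log2 ratio (SLR) is a difference between 2 group means on that scale. A probe set was called when limma's moderated test, adjusted by Benjamini-Hochberg over all 22746 probe sets, gave an adjusted p under 0.01 with an |SLR| above 1. "Rose" and "fell" are used for an adjusted p under 0.05 with any SLR. Plastid probe sets ranged from a mean of 5.28 to 14.53 log2 units over the 8 arrays, 70 of 77 at or above the median probe set (7.24) and 7 within 1 unit of the highest value of the table (14.81), where differences can be compressed. Mitochondrial probe sets ranged from 4.84 to 10.25, with 28 of 35 below the median probe set and 6 below the first quartile (5.23).

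Transcripts of the mitochondrial genome read higher after 2 h of hypoxia in both genotypes, and those of the plastid genome differed little between the treatments. The mitochondrial probe sets had a median SLR of 0.50 in Col-0 and 0.68 in OE-HRA1, a 1.42-fold and a 1.60-fold difference, against medians of -0.01 and 0.01 over all probe sets. The plastid probe sets had medians of 0.17 and 0.12. All 4 medians kept their sign when the arrays were quantile normalized again or centred on the nuclear probe sets, whereas centring on the members of the same organelle, which removes the shared shift by construction, gave -0.16, -0.12, -0.12 and -0.10. The signal need not follow the amount of an organelle RNA, as stated above. A larger share of mitochondrial RNA in the tissue, more RNA per mitochondrion and a change in the tails or labelling of these RNAs cannot be told apart here.

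Array by array, the median signal of the mitochondrial probe sets was 5.91 and 5.82 log2 units in Col-0 in air and 6.91 and 6.15 in Col-0 under hypoxia. In OE-HRA1 it was 6.06 (line #1) and 6.16 (line #2) in air and 7.06 and 6.76 under hypoxia. The lines lay close together in each treatment. The Col-0 replicates under hypoxia were far apart, and replicate 2 was near the OE-HRA1 arrays in air. Hypoxia minus air within a pair of the same number gave a mitochondrial median difference of 0.78 and 0.30 for Col-0 replicates 1 and 2 and of 0.84 and 0.56 for lines #1 and #2. The plastid medians of the same 4 differences were 0.17, 0.18, 0.09 and 0.10, and those of all probe sets lay between -0.03 and 0.02. The difference was above 0 in all 4 pairs for 27 of the 35 mitochondrial and 37 of the 77 plastid probe sets, against 22.1% of all probe sets, and below 0 in all 4 for 0 and 5, against 25.8%.

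**Figure D1:**
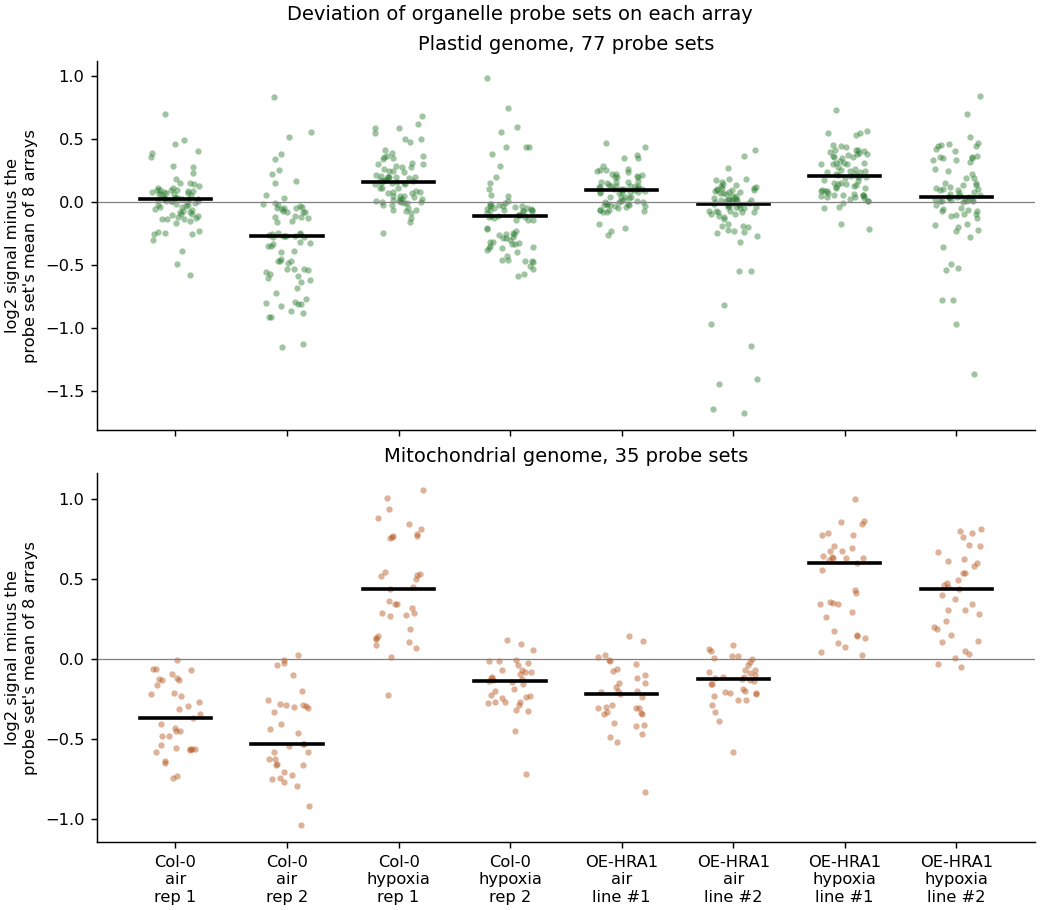
Signal of each organelle probe set on each of the 8 arrays, as log2 units above or below that probe set's mean over the 8 arrays, with black bars for the median of the 77 plastid (top) or 35 mitochondrial (bottom) probe sets. The mitochondrial bars of Col-0 hypoxia replicate 1 and of both OE-HRA1 hypoxia arrays stand well above the rest, and the low plastid points on the line #2 arrays belong mainly to a run of ribosomal protein genes.

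The mitochondrial signals of Col-0 hypoxia replicates 1 and 2 differed by a median of 0.62 log2 units, against 0.12 over all probe sets of the same arrays, and replicate 1 was higher for 34 of 35. In the other 3 groups the median difference of the mitochondrial probe sets was 0.11 to 0.15. The SLR of the mitochondrial members in Col-0 therefore rests on which of these arrays is used: the median was 0.21 without replicate 1 and 0.87 without replicate 2. The plastid median in Col-0 was -0.01 without replicate 1 under hypoxia and 0.31 without replicate 2, and 0.01 without replicate 2 in air, and that in OE-HRA1 was 0.01 without line #1 under hypoxia. No label or value here says which array is the more typical.

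Under hypoxia, 3 mitochondrial probe sets were called higher in OE-HRA1 and 0 in Col-0, where 1.96% and 2.01% of all probe sets were called higher, and 0 were called lower in either (2.84% of all probe sets were called in Col-0 in either direction). The SLR was above 0 for 34 of 35 in each genotype, against 46.7% of all probe sets in Col-0 and 52.1% in OE-HRA1, and 24 passed an unadjusted p under 0.05 in OE-HRA1, against 33.1%. At an adjusted p under 0.05, 14 of 35 rose in OE-HRA1 and 10 in Col-0, against 8.05% and 7.21% of all probe sets, and none fell. The arrays of the treatments did not overlap, with hypoxia higher, for 31 and 24 of 35, against 32.1% and 24.0% of all probe sets. Counted by gene, 25 of 26 entries (rpl16 and rps3 counted once) had all their probe sets above 0 in each genotype. With line as a blocking term there was 1 mitochondrial call in OE-HRA1, in a fit whose share over all probe sets is not given here. The calls in OE-HRA1 were not kept when single OE-HRA1 arrays or either line were left out. All groups share a common estimate of the spread, so the distance between the Col-0 hypoxia replicates also enters the OE-HRA1 test. In Col-0 the result depended on the hypoxia array left out, with the medians of 0.21 and 0.87 given above.

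The lowest adjusted p of the mitochondrial members was that of 266042_s_at, listed with rps4 (a protein of the small mitochondrial ribosomal subunit) and the nuclear gene AT2G07734. It read 6.27 and 6.37 log2 units in Col-0 in air, 7.35 and 6.79 in Col-0 under hypoxia, 6.31 and 6.44 in OE-HRA1 in air, and 7.50 and 7.59 in OE-HRA1 under hypoxia. All 4 hypoxia arrays lay above all 4 air arrays, with Col-0 hypoxia replicate 2 the lowest of them. The SLR was 1.17 in OE-HRA1 (SE 0.16, adjusted p = 0.0020 by limma) and 0.75 in Col-0 (SE 0.16, adjusted p = 0.016). It was still called in OE-HRA1 with line as a blocking term (adjusted p = 0.0045), but not without single OE-HRA1 arrays (adjusted p from 0.014 to 0.024) or without a line (0.083 and 0.091).

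The probe set of nad9, a peripheral-arm subunit of complex I (the NADH dehydrogenase of the respiratory chain), was also called in OE-HRA1. Its signal was 6.01 and 5.75 in Col-0 in air, 7.04 and 6.48 in Col-0 under hypoxia, 6.20 and 6.33 in OE-HRA1 in air, and 7.41 and 7.12 in OE-HRA1 under hypoxia. The 4 hypoxia arrays again lay above the 4 air arrays. The SLR was 1.00 in OE-HRA1 (SE 0.19, adjusted p = 0.0077) and 0.88 in Col-0 (SE 0.19, adjusted p = 0.015). The call was lost with line as a blocking term (adjusted p = 0.015).

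The third called probe set was 263502_s_at, listed with mitochondrial rps12 (another protein of the small ribosomal subunit) and AT2G07675. It read 5.44 and 5.07 in Col-0 in air, 6.22 and 5.55 in Col-0 under hypoxia, 5.39 and 5.56 in OE-HRA1 in air, and 6.57 and 6.49 in OE-HRA1 under hypoxia. Here the Col-0 treatments were close, replicate 2 under hypoxia lying only just above replicate 1 in air, while those of OE-HRA1 were well apart. The SLR was 1.06 in OE-HRA1 (SE 0.21), with an adjusted p at the threshold that became 0.019 with line as a blocking term and 0.0103 with a robust prior variance, and 0.63 in Col-0 (adjusted p = 0.080).

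Complex I had 17 of the 35 mitochondrial probe sets, of which 6 rose in Col-0 (median SLR 0.50) and 7 in OE-HRA1 (median SLR 0.66). The 9 probe sets of nad1, a membrane-arm subunit, did not move together. At 257321_at the signal was 5.79 and 5.82 in Col-0 in air, 7.41 and 6.29 in Col-0 under hypoxia, 5.52 and 5.77 in OE-HRA1 in air, and 7.06 and 7.15 in OE-HRA1 under hypoxia. This was the highest SLR among the members in OE-HRA1, 1.46 (SE 0.30, adjusted p = 0.011), and it was 1.04 in Col-0 (adjusted p = 0.046). At 257325_at the SLR was 1.18 in Col-0 but 0.69 in OE-HRA1 (adjusted p = 0.022 and 0.12). At 257329_at, by contrast, it was 0.02 and 0.17, and at 266013_s_at, listed with nad1 and AT2G07702, it was 0.13 and 0.08. What part of the gene each of these probe sets covers was not analysed here.

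Other complex I members ranged from SLRs that passed the test to SLRs near 0. nad4, a membrane-arm subunit, had SLRs of 0.38 in Col-0 (adjusted p = 0.081) against 0.66 in OE-HRA1 (adjusted p = 0.0084). nad6, another membrane-arm subunit, had SLRs of 0.22 (adjusted p = 0.36) and 0.79 (adjusted p = 0.0058), its OE-HRA1 signals being 5.35 and 5.70 in air and 6.31 and 6.31 under hypoxia. Neither reached an SLR of 1. nad7 and nad2, at 4.79 to 5.17 and 5.23 to 5.47 log2 units over the 8 arrays, had SLRs of -0.05 and 0.09 in Col-0 and of 0.01 and -0.03 in OE-HRA1, and these low signals are near the bottom quartile of the array.

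The remaining respiratory members were few. The ATP synthase had 2 probe sets, 265228_s_at (atp1, the alpha subunit of the catalytic head, and AT2G07698) and that of atp9 (the ring subunit c) and AT2G07671. The former read 8.48 and 8.36 in Col-0 in air, 9.89 and 8.89 in Col-0 under hypoxia, 8.71 and 8.91 in OE-HRA1 in air, and 9.81 and 9.91 in OE-HRA1 under hypoxia. Its SLRs of 0.97 and 1.05 had adjusted p-values of 0.041 and 0.027, and Col-0 hypoxia replicate 2 stood well below replicate 1. For atp9 the SLR was 0.55 in Col-0 (adjusted p = 0.18) against 0.95 in OE-HRA1 (adjusted p = 0.027). The probe set of cob (apocytochrome b of complex III) and AT2G07727 had SLRs of 0.50 (adjusted p = 0.14) and 0.75 (adjusted p = 0.033).

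In complex IV, the cytochrome c oxidase, cox1 (the catalytic subunit) had SLRs of 0.75 and 0.82 (adjusted p = 0.12 and 0.081). cox2, which carries the copper centre that accepts electrons from cytochrome c, had SLRs of 0.34 and 0.85 (adjusted p = 0.51 and 0.074). The probe set of cox3 and AT2G07687 rose in OE-HRA1 with an SLR of 0.76 (adjusted p = 0.0098) and had 0.25 in Col-0 (adjusted p = 0.34). Of the 4 cytochrome c maturation members, ccmFC rose in Col-0 (SLR 1.08, adjusted p = 0.035) and had 0.87 in OE-HRA1 (adjusted p = 0.067), while ccmFN1 had 0.45 and 0.50, ccmFN2 0.17 and 0.17, and ccmB 0.01 and 0.13, none of which passed the test.

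The 6 ribosomal protein probe sets had median SLRs of 0.69 and 0.74. Besides those of rps4 and rps12, the probe set of rpl5 and AT2G07725 rose in both genotypes (SLR 0.98 and 0.80, adjusted p = 0.025 and 0.048). That of mitochondrial rpl16 and rps3 had 0.65 and 0.68 (adjusted p = 0.11 and 0.086), that of rpl2 and AT2G07715 had 0.72 and 0.59, and that of rps7 and AT2G07696 had 0.36 and 0.15. matR, an intron-encoded maturase, had SLRs of 0.48 and 0.63 (adjusted p = 0.17 and 0.069), and mttB, a component of a membrane protein translocase, 0.31 and 0.34. The 23 probe sets listed with 1 gene had medians of 0.45 and 0.66, and the 11 listed with a nuclear gene 0.55 and 0.76. In total 6 mitochondrial probe sets rose in both genotypes, those of nad9, atp1, rps4 and rpl5 and 2 of nad1. The share of all probe sets that rose in both is not given here, so this count has no background to be set against.

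**Figure D2:**
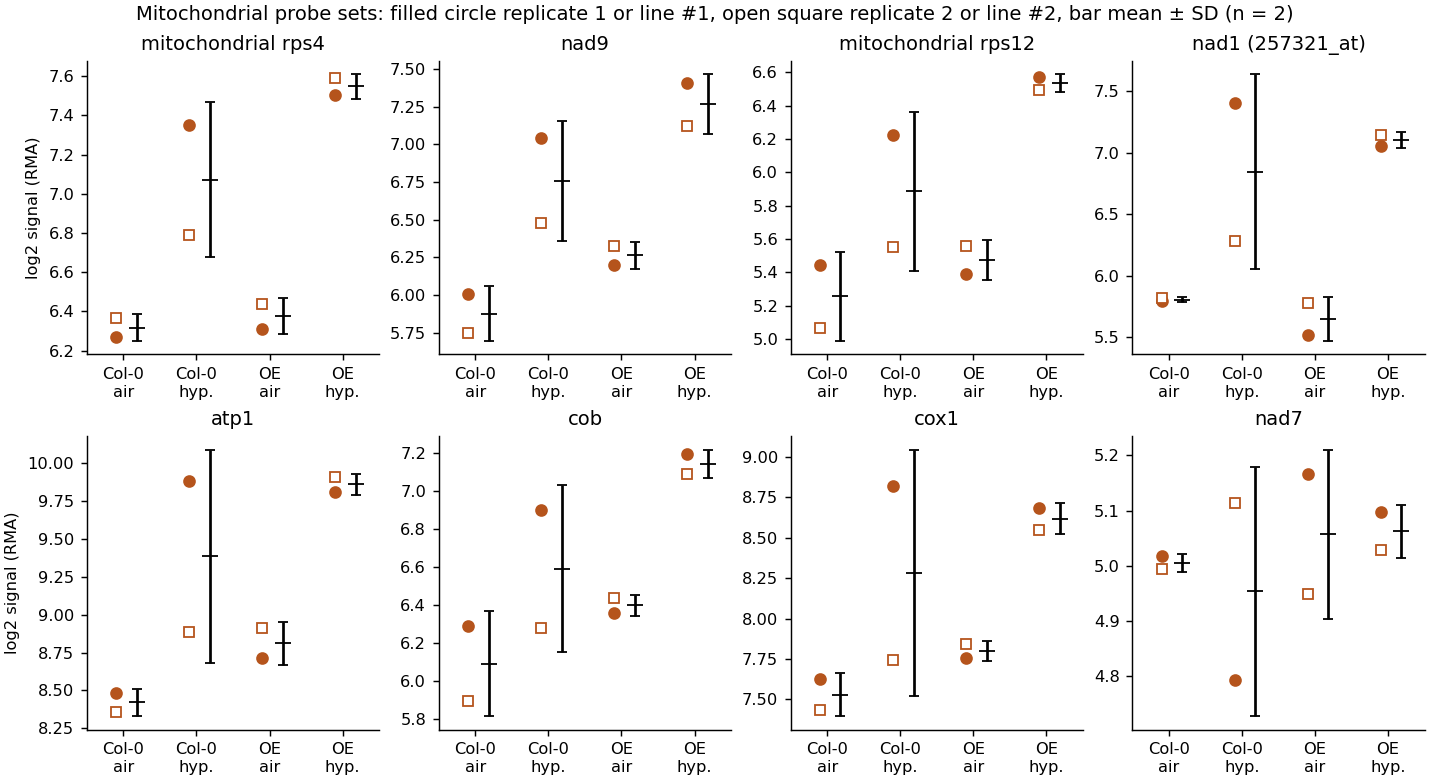
log2 signal of 8 mitochondrial probe sets in the 4 groups, with circles for replicate 1 or line #1, squares for replicate 2 or line #2 and bars for mean ± SD (n = 2; each panel has its own axis, which does not start at 0). In all panels but nad7 the OE-HRA1 hypoxia signals stand above those in air, and Col-0 hypoxia replicate 2 lies well below replicate 1; the probe sets of rps4, rps12, atp1 and cob are also listed with a nuclear gene.

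In the plastid genome 1 probe set was called higher under hypoxia in OE-HRA1 and 0 in Col-0, and 0 were called lower, against 1.11% and 0.822% of all probe sets called lower. At an adjusted p under 0.05, 3 rose and 1 fell in Col-0, and 5 rose and 1 fell in OE-HRA1, out of 77. These shares lie below those of all probe sets (17.3% and 20.1% in either direction). The quartiles of the plastid SLRs were 0.07 and 0.27 in Col-0, and 0.00 and 0.30 for OE-HRA1. The SLR was above 0 for 65 of 77 in Col-0 and 58 in OE-HRA1, against 46.7% and 52.1% of all probe sets. Non-overlapping arrays were found with hypoxia higher for 18 and 29 plastid probe sets, near the 24.0% and 32.1% of all probe sets, and with hypoxia lower for 5 in each genotype, against 29.7% and 31.0% of all probe sets with hypoxia lower.

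The called probe set was that of plastid rps14, a protein of the small ribosomal subunit whose gene neighbours psaB and psaA. It read 5.12 and 4.97 in Col-0 in air, 5.54 and 6.29 in Col-0 under hypoxia, 5.52 and 5.15 in OE-HRA1 in air, and 6.43 and 6.54 in OE-HRA1 under hypoxia. The treatments did not overlap within either genotype, and replicate 2 was the higher Col-0 array under hypoxia, opposite to most plastid members. The SLR was 1.15 in OE-HRA1 (SE 0.22, adjusted p = 0.0093) and 0.87 in Col-0 (SE 0.22, adjusted p = 0.033). With line as a blocking term the adjusted p in OE-HRA1 was 0.017, with the replicate number as a block 0.015, and without single OE-HRA1 arrays 0.026 to 0.070. In Col-0 the SLR was 1.24 without hypoxia replicate 1.

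ndhF and ndhB, subunits of the NADH dehydrogenase-like complex that drives cyclic electron flow around photosystem I, also rose. ndhF read 4.89 and 5.01 in Col-0 in air, 5.42 and 5.27 in Col-0 under hypoxia, 5.02 and 5.05 in OE-HRA1 in air, and 5.83 and 5.74 in OE-HRA1 under hypoxia. The arrays of each group lay close together, and its SLR of 0.75 in OE-HRA1 had the lowest adjusted p of all members, 0.00097 (SE 0.09), with 0.40 in Col-0 (adjusted p = 0.019). The mean signal of ndhF over all arrays, 5.28, was near the first quartile of all probe sets (5.23). ndhB had SLRs of 0.62 in Col-0 (adjusted p = 0.015) against 0.51 in OE-HRA1 (adjusted p = 0.029). Of the other 9 members of this complex none rose or fell, and ndhI, at 14.07 to 14.22 log2 units near the top of the scale, had an SLR of 0.04 in Col-0.

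petD, subunit IV of the cytochrome b6f complex that links the photosystems, rose in OE-HRA1 (SLR 0.66, adjusted p = 0.015) and had an SLR of 0.46 in Col-0 (adjusted p = 0.068). ycf2, a large protein of the inner envelope, rose in OE-HRA1 with an SLR of 0.39 (adjusted p = 0.019) and had 0.26 in Col-0 (adjusted p = 0.088).

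The only plastid probe set that fell was rps16, another small-subunit ribosomal protein gene near psbA and matK. Its signal was 9.76 and 9.32 in Col-0 in air, 9.13 and 8.90 in Col-0 under hypoxia, 9.81 and 9.74 in OE-HRA1 in air, and 9.15 and 9.15 in OE-HRA1 under hypoxia. All 4 hypoxia arrays lay below all 4 air arrays. The SLR was -0.53 in Col-0 (SE 0.14, adjusted p = 0.038) against -0.62 in OE-HRA1 (SE 0.14, adjusted p = 0.018). Without single arrays of Col-0 it ranged from -0.75 to -0.31, and did not pass the test without air replicate 1 (adjusted p = 0.17) or without hypoxia replicate 2 (adjusted p = 0.148).

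rbcL, the large subunit of the carbon-fixing enzyme Rubisco, had the same sign without passing the test. It read 11.28 and 11.09 in Col-0 in air, 10.97 and 10.56 in Col-0 under hypoxia, 11.16 and 11.01 in OE-HRA1 in air, and 10.75 and 10.57 in OE-HRA1 under hypoxia. The arrays of the treatments did not overlap. The SLR was -0.42 in Col-0 (SE 0.15, adjusted p = 0.091) against -0.43 in OE-HRA1 (SE 0.15, adjusted p = 0.077).

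The other photosynthetic groups contained no probe set that rose or fell. The 15 probe sets of photosystem II had median SLRs of 0.09 (Col-0) and 0.02 (OE-HRA1). psbA (the D1 reaction-centre protein) was at 0.17 and 0.32 and psbD (the D2 protein) at 0.33 and 0.14. The 7 of photosystem I, which include the assembly factors ycf3 and ycf4, had medians of 0.15 and 0.06, with psaA and psaB, the reaction-centre proteins, at 0.15 and 0.13 in Col-0 and -0.08 and -0.01 in OE-HRA1. The 6 of the ATP synthase had medians of 0.14 and 0.06, and atpB, the catalytic beta subunit, lay at 0.01 and -0.01 on signals within 1 unit of the top of the scale.

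Among genes for plastid gene expression, the 4 RNA polymerase subunits had median SLRs of 0.22 and 0.15, and rpoB, the beta subunit, had 0.56 in Col-0 (adjusted p = 0.10) against 0.15 in OE-HRA1 (adjusted p = 0.66). The 20 ribosomal protein probe sets had medians of 0.22 and 0.26, and rps12, with 2 probe sets, had 0.62 and 0.65 at 244939_at and 0.44 and 0.56 at 244940_at, none of which passed the test. matK, an intron maturase, had -0.17 and -0.13, clpP, a subunit of the Clp protease, 0.14 and 0.30, and accD, a subunit of acetyl-CoA carboxylase, 0.14 and 0.31. ccsA, needed to attach haem to c-type cytochromes, had 0.02 and 0.06.

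**Figure D3:**
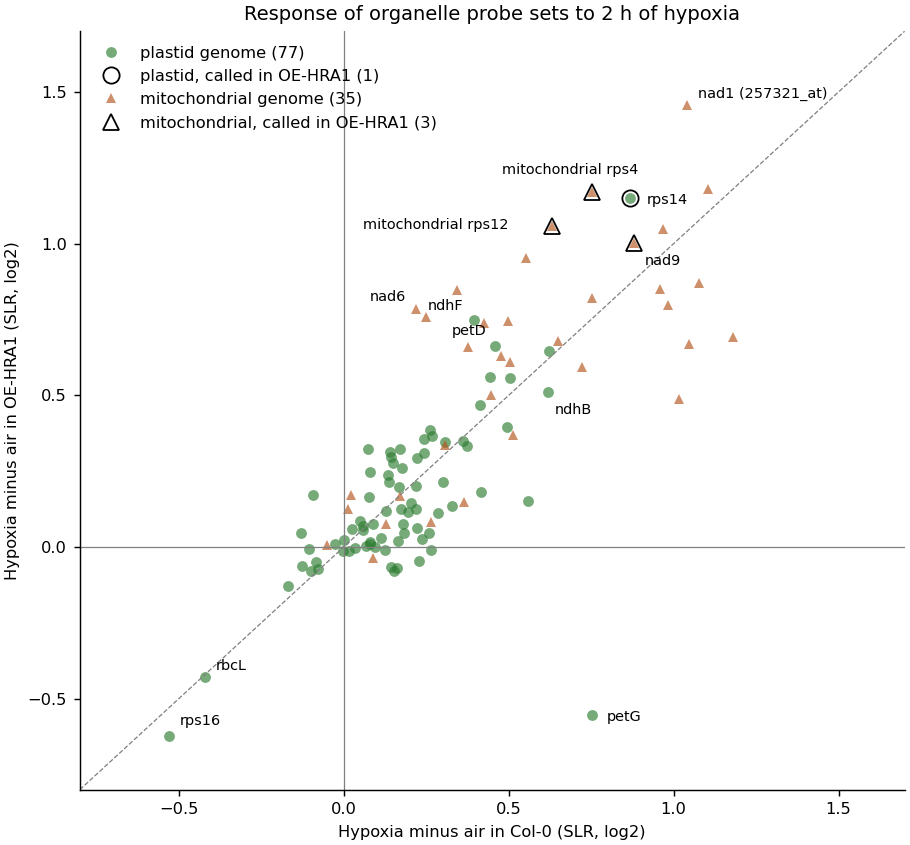
SLR of hypoxia against air in Col-0 (x) and in OE-HRA1 (y), both in log2 units, for 77 plastid (circles) and 35 mitochondrial (triangles) probe sets, with black outlines for the 4 called in OE-HRA1 and a dashed line at equal values. Most mitochondrial points lie above 0.3 on both axes, most plastid points lie near 0, rbcL and rps16 lie at the lower left, and petG lies apart.

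Across the 112 members the hypoxia SLRs of Col-0 and of OE-HRA1 correlated at r = 0.79 (0.66 over the plastid and 0.72 over the mitochondrial probe sets). The value over all members also reflects the distance between the medians of the genomes, and the correlation over all probe sets is not given here. Probe sets of neighbouring genes and of the same arrays are not independent, and these values describe these arrays only.

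OE-HRA1 and Col-0 were also compared within each treatment. No member was called under hypoxia or in air, where 0.914% and 0.106% of all probe sets were called (in air 0.0396% higher and 0.0659% lower). At an unadjusted p under 0.05 there were 12 mitochondrial and 9 plastid members under hypoxia (24.4% of all probe sets) and 2 and 7 in air (14.4%). At an adjusted p under 0.05, 2 mitochondrial and 2 plastid members were higher in OE-HRA1 under hypoxia (3.06% of all probe sets, with 4.34% lower and 7.4% in either direction), and none differed in air (1.22% in either direction). They were nad6 (SLR 0.73, adjusted p = 0.020), nad4 (0.52, adjusted p = 0.046), ndhF (0.44, adjusted p = 0.026) and ycf2 (0.42, adjusted p = 0.032). None was lower. The mean signals of nad6 (5.69), ndhF (5.28) and ycf2 (5.29) lay below the median probe set (7.24), and that of nad4 (9.01) above it.

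The medians of the mitochondrial members were above 0 in both treatments, at 0.27 under hypoxia and 0.24 in air, against 0.03 and 0.01 over all probe sets. In air, 34 of 35 had an SLR above 0 (53.0% of all probe sets), and 30 under hypoxia (55.9%). In air, for 21, both OE-HRA1 arrays stood above both Col-0 arrays, against 25.4% of all probe sets. Under hypoxia this held for 12 of 35, a share near the 29.5% of all probe sets. The largest in air was nad1 at 257325_at, with 6.15 and 5.97 in Col-0 and 6.59 and 6.98 in OE-HRA1 (SLR 0.72, SE 0.28, adjusted p = 0.28). Under hypoxia the largest was cox2, with 6.91 and 5.85 in Col-0 and 7.42 and 7.28 in OE-HRA1 (SLR 0.97, SE 0.29, adjusted p = 0.082). The hypoxia value rested on the Col-0 arrays: without replicate 1 the mitochondrial median was 0.69, and without replicate 2 it was -0.02. Each of these fits leaves 1 Col-0 array under hypoxia, so only the medians are given.

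Plastid members had median SLRs of 0.09 under hypoxia and 0.18 in air between the genotypes. The plastid ribosomal protein genes included the lowest values, -1.12 under hypoxia and -1.03 in air for rpl22, which came from 1 of the lines (described below with its neighbours). At the other end, rps4 of the plastid had 0.58 and 0.48, accD 0.54 and 0.37, and petG 0.76 in air, with adjusted p-values of 0.19 or more. For these the Col-0 arrays of replicate 2 were low: plastid rps4 read 13.15 and 12.58 in Col-0 in air, 13.37 and 12.63 in Col-0 under hypoxia, 13.41 and 13.29 in OE-HRA1 in air, and 13.61 and 13.55 in OE-HRA1 under hypoxia. The plastid median in air was 0.31 without Col-0 air replicate 1 and 0.00 without replicate 2.

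The interaction, the difference between the hypoxia SLRs of OE-HRA1 and Col-0, called 0 members of either genome, where 0.163% of all probe sets were called, and its lowest adjusted p among the members was 0.69. At an unadjusted p under 0.05 there were 2 plastid and 2 mitochondrial members, against 5.68% of all probe sets. The median interaction was -0.01 for plastid and 0.07 for mitochondrial probe sets, above 0 for 37 and 22 of them (53.9% of all probe sets), with extremes of -0.53 (nad1 at 257323_at) and 0.57 (nad6) in the mitochondrial set. A difference in the response of organelle transcripts between the genotypes was thus not detectable with 2 arrays per group, and the median SE of an interaction was 0.24 for plastid and 0.28 for mitochondrial members.

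Plastid transcripts showed a pattern that followed the OE-HRA1 line. In line #2, in air and under hypoxia, 6 ribosomal protein genes that follow one another on the plastid genome among the genes measured here (rpl36, rpl14, rpl16, rps3, rpl22 and rps19) read lower than in line #1. These genes belong to the largest cluster of ribosomal protein genes of the plastid genome, which rpl23 and rpl2 open and rpoA closes. The comparison of the lines was chosen after the values were seen.

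rpl22, a large-subunit protein, read 12.18 and 12.99 in Col-0 in air, 12.46 and 13.14 in Col-0 under hypoxia, 12.63 (line #1) and 10.48 (line #2) in OE-HRA1 in air, and 12.57 and 10.79 in OE-HRA1 under hypoxia. Both line #2 arrays lay well below the other 6, and Col-0 replicate 2 was the highest in each treatment. rpl14, also a large-subunit protein, read 9.61, 9.99, 10.10 and 10.22 in Col-0, 9.77 and 9.79 in line #1, and 7.84 and 8.51 in line #2. Again the line #2 arrays alone were low, the one in air lowest.

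Line #2 minus line #1, averaged over the treatments, was -1.96 for rpl22, -1.60 for rpl14, -1.49 for rpl16, -1.45 for rps3, -1.05 for rps19 and -0.93 for rpl36 on the log2 scale. On the same scale rpoA, the polymerase alpha subunit at the end of the cluster, had -0.54, and ycf1, a large envelope protein encoded elsewhere, -0.88. rpl2 and rpl23, at the other end of the cluster, had -0.12 and -0.11, and petD and petB, beyond rpoA, 0.01 and -0.03. Among the genes of the cluster measured here, those from rpl36 to rps19 were lowest in line #2, and rpoA was lower by less. The probe sets of rpl2 and rpl23 read close to line #1. Both are listed with repeated copies of their gene, and their mean signals were high (13.92 and 13.44, with 14.81 the highest value of the table). They therefore do not fix where the run ends.

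In the model with a line term for the OE-HRA1 arrays, which called 0 organelle probe sets and 0.0044% of all probe sets, the adjusted p was 0.10 for rpl16, 0.17 for rpl14 and rpl36, 0.29 for rps3, 0.37 for rpl22 and 0.56 for rps19. With a term for the Col-0 replicate as well, rpl22 was called (adjusted p = 0.00074, with 0.0132% of all probe sets called), and rpl14, rpl16 and rps3 (0.018 each) and rpl36 (0.023) passed 0.05, while rps19 did not (0.088). A fit of the 4 OE-HRA1 arrays alone, with 1 residual degree of freedom, called 5 of the 6, genes that had been picked by these values, and 0.0879% of all probe sets, and its adjusted p for rpl36 was 8.1e-05 at an |SLR| under 1. The line and the replicate number of the OE-HRA1 arrays are the same label, so a trait of line #2 and its batch of growth or labelling cannot be told apart. In Col-0, replicate 2 was not low for these genes.

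**Figure D4:**
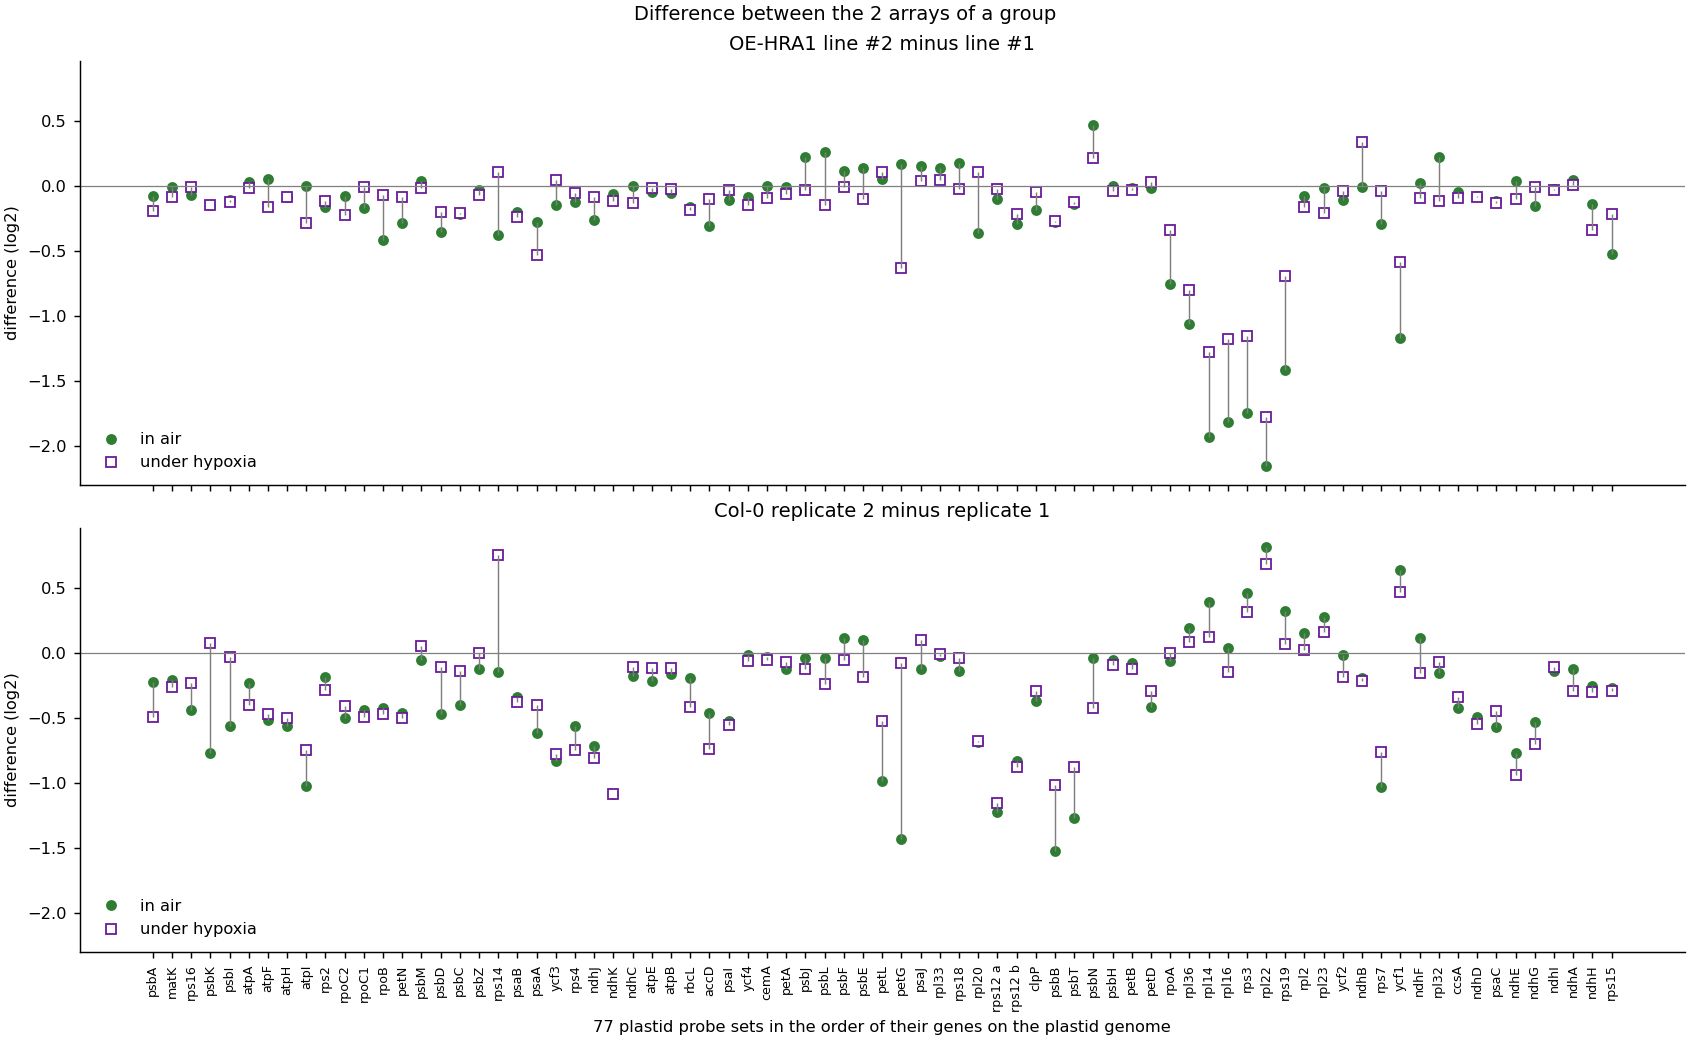
Difference between the 2 arrays of a group in log2 units, line #2 minus line #1 in OE-HRA1 (top) and replicate 2 minus replicate 1 in Col-0 (bottom), for the 77 plastid probe sets in the order of their genes (rps12 a and b are 244939_at and 244940_at). Filled points are arrays in air and open squares those under hypoxia; the run from rpl36 to rps19 and ycf1 are low in line #2, and many other genes are low in Col-0 replicate 2.

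**Figure D5:**
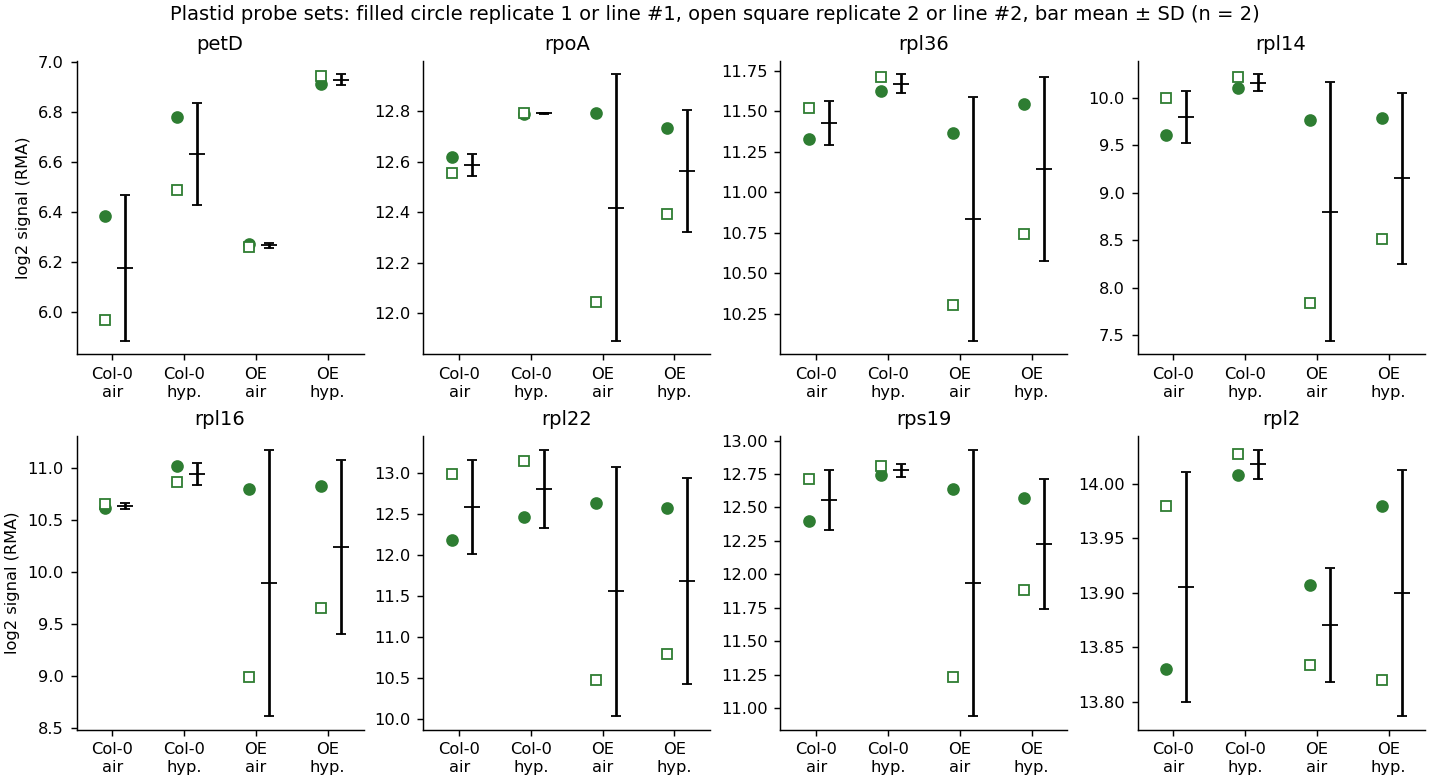
log2 signal of 8 plastid probe sets in the 4 groups, with circles for replicate 1 or line #1, squares for replicate 2 or line #2 and bars for mean ± SD (n = 2; each panel has its own axis, which does not start at 0). The line #2 squares are far below the other arrays from rpl36 to rps19, by less for rpoA, and not for petD; for rpl2 the whole axis spans under 0.3 log2 units.

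The Col-0 arrays differed in other plastid genes. Replicate 2 was below replicate 1 in both treatments for 59 of 77 plastid probe sets, against 30.5% of all probe sets, and for 17 both differences exceeded 0.5 in the same direction, against 1.01% of all probe sets. In OE-HRA1, line #2 was below line #1 in both treatments for 51 of 77, against 22.2% of all probe sets, and for 7 both differences exceeded 0.5 in the same direction, against 0.374%. psbB, the CP47 antenna protein of photosystem II, read 11.58 and 10.06 in Col-0 in air and 11.47 and 10.46 under hypoxia, against 10.70 to 11.04 on the 4 OE-HRA1 arrays. Its neighbour psbT read 10.37 and 9.10, then 10.46 and 9.59 in Col-0, whereas psbH, in the same transcription unit, read 13.14 to 13.23 on the 4 Col-0 arrays. These shared differences enter the residual spread of the model, and with the Col-0 replicate and the line as separate blocks 12 plastid probe sets rose and 2 fell in Col-0, and 14 rose and 2 fell in OE-HRA1. The mitochondrial counts were then 21 and 25 of 35 rising, with 3 and 6 called. In this fit 8.75% and 9.84% of all probe sets rose and 12.2% and 14.3% fell, and 3.04% and 3.27% were called in either direction.

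Nuclear genes of related function were read from lists of which the platform annotation matched only a few. The 5 matched genes of the photosystems, the light-harvesting complexes and the plastid ATP synthase (of 38 listed) had SLRs between -0.25 and 0.04 under hypoxia, and none was called. RPOTMP, the phage-type polymerase shared by both organelles (1 of 9 listed), had -0.28 in Col-0 (adjusted p = 0.080) against -0.01 in OE-HRA1, and the organelle RNA-degrading enzyme MTPNPASE (1 of 7) had -0.25 and -0.38 (adjusted p = 0.46 and 0.21). Of 4 mitochondrial stress genes (of 10), none was called, and UPOX (SLR 0.59, adjusted p = 0.019) and AT12CYS-2 (SLR 0.29, adjusted p = 0.042) rose in OE-HRA1. In Col-0 these had the same sign, 0.44 and 0.19 (adjusted p = 0.061 and 0.18), and their interactions were 0.14 and 0.10 (adjusted p = 0.97 for each). The others, NDB2 and NDB4, had -0.19 and -0.005 in Col-0 and 0.05 and 0.13 in OE-HRA1. None of 12 proteins associated with the plastid-encoded polymerase was matched.

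The root hair marker EXPA7, the only matched gene of 11 root markers, was called lower under hypoxia in both genotypes. It read 7.27 and 7.28 in Col-0 in air, 6.22 and 5.99 in Col-0 under hypoxia, 7.66 and 8.16 in OE-HRA1 in air, and 6.65 and 6.51 in OE-HRA1 under hypoxia (SLR -1.17 and -1.33, adjusted p = 0.0019 and 0.00098). Whether the makeup of the tissue has a part in the organelle values was not tested.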

How the data were processed

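Total RNA of 8 samples was labelled with biotin and hybridized to Affymetrix ATH1 arrays. In the study's processing, MAS5 gave present calls and RMA the expression values, jointly with arrays of a further experiment, and probe sets of both organelle genomes were dropped before testing. The table the authors deposited holds RMA values on the log2 scale, with the organelle probe sets still present. Whether it came from that joint run is not given in the sources used here. Values were used as deposited. RMA sets the arrays to 1 distribution, so a change in total RNA cannot be seen, and the number of arrays limits the precision.

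Of 22810 probe sets, 64 controls were left out. Members were found in the platform annotation (14016 probe sets), by gene identifier for the plastid genome and by symbol for the mitochondrial genome, whose identifiers there were not found in the RefSeq gene table. limma 3.58.1 under R 4.3.3 fitted the group means (4 residual and 4.07 prior degrees of freedom, Benjamini-Hochberg over 22746). The model was also run on simulated data, with noise drawn independently for each probe set and array. That run does not cover differences that many members of an array share. Calls used the thresholds of the methods. Comparisons were hypoxia against air per genotype, OE-HRA1 against Col-0 per treatment, and the interaction. The design states independent biological replicate experiments. Deviations from the group means correlated between arrays of the same number at 0.38 in Col-0, where the labels do not say what the number stands for, and at 0.16 in OE-HRA1, where it is the line (plastid members 0.78 and 0.87).

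Named members were those called, the 3 largest rises and falls per comparison and genome, the brightest of each role, and fixed landmarks. Members of the run in line #2, psbB, psbT, psbH, ycf2 and others outside this rule were named after their values were seen. Members, lists and tests were chosen with earlier results of these data known. Alternatives were a signal filter (60% kept), normalizations, prior variances, blocks, thresholds, single-gene probe sets, and leaving out arrays or lines.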

Additional observations from a re-analysis of the deposited data

Results flagged for a closer look

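In 3 plastid members both Col-0 pairs of arrays moved one way under hypoxia and both OE-HRA1 pairs the other way. The share of all probe sets with this pattern is not given here, so this count has no background to be set against. The interaction, which tests the difference between the genotypes, was not significant for any of the 3 (limma, adjusted p of 0.88 or more). petG, a small subunit of the cytochrome b6f complex, had the largest, -1.31 on the log2 scale (SE 0.56, adjusted p = 0.88). It read 10.05 and 8.62 in Col-0 in air, 10.12 and 10.04 in Col-0 under hypoxia, 10.01 and 10.18 in OE-HRA1 in air, and 9.85 and 9.22 in OE-HRA1 under hypoxia. The Col-0 array of replicate 2 in air and the line #2 array under hypoxia stand apart from the other 6. For psbC, the CP43 antenna protein of photosystem II, the interaction was -0.27 (adjusted p = 0.95), and for ndhI it was -0.0396 (adjusted p = 0.99). The ndhI pairs differed by only 0.02 and 0.05 in Col-0 and by -0.002 and -0.007 in OE-HRA1, near the top of the scale.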

How the results depend on the processing

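Counts of called members stood near the thresholds. Shares over all probe sets are given above for some of these settings only, so the other counts show no more than how far the calls moved. For hypoxia in OE-HRA1, the 3 mitochondrial calls became 1 with line as a blocking term or with single-gene probe sets, 0 with centring on the same organelle or without either line, and 6 with a fit of the compared groups, with an adjusted p under 0.05, or without a minimum SLR, where 0.05 gave 14. The replicate block left 3 mitochondrial calls and 0 plastid ones, and the replicate block within each genotype, chosen after seeing the data, gave 6. The 1 plastid call became 0 with the line as a block, the signal filter, organelle centring or without either line, and 2 and 6 without a minimum SLR at 0.01 and 0.05. In Col-0 the 0 mitochondrial calls became 1 with a trend in the prior variance, 3 with that added block, 5 at 0.05, and 10 at 0.05 without a minimum SLR, where plastid calls became 4. Between genotypes under hypoxia, 0.05 without a minimum SLR gave 2 for each genome. Between the lines, 0 plastid calls became 1 with the added block and 5 with the OE-HRA1 arrays alone.

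Organelle centring moved the mitochondrial medians to -0.16 (Col-0), -0.12 (OE-HRA1) and -0.12 (genotypes under hypoxia) and the plastid median between lines to 0.43, by construction. Without single arrays, medians ranged from 0.21 to 0.87 (mitochondrial, Col-0), 0.59 to 0.77 (OE-HRA1), -0.024 to 0.69 (genotypes under hypoxia), 0.15 to 0.30 (genotypes in air) and -0.20 to 0.34 (interaction), and plastid medians from -0.01 to 0.31, 0.01 to 0.17, -0.01 to 0.22, 0.00 to 0.31 and -0.18 to 0.09. Calls without single arrays ranged from 0 to 13 and 0 to 6 (mitochondrial, Col-0 and OE-HRA1), 0 to 2 (genotypes under hypoxia) and 0 to 1 (plastid, each genotype). A fit without 1 array leaves 1 array in its group, and the shares of all probe sets called in these fits are not given here. Their counts therefore show no more than how far the calls moved. The causes were not tested. The precision is limited by 2 arrays per group.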
